A study of Saccharomyces cerevisiae with 6 samples.

Results

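Most binding sites of a transcription factor lie in front of genes, and the sites described here are the others: Pdr1 peaks whose summit fell inside an annotated protein-coding gene, or in a space between 2 genes that both end there (a convergent space, which holds no annotated gene start). Of 792 peaks in the list of Pdr1 replicate 1, 135 were of this kind, and of 485 peaks in the list of replicate 2, 67 were, so 202 of 1277 peaks in all. Peaks were chosen by the position of the summit alone, from the gene models of assembly R64 of Saccharomyces cerevisiae. The libraries came from CUT&RUN, in which an antibody on permeabilised nuclei recruits a nuclease that releases the DNA beside the bound protein. Both Pdr1 libraries used an antibody to the c-Myc epitope, for which the labels name different products in the protocol and in the sample fields, in the strain labelled YRP10, grown in YPD (a rich glucose medium) at 30 °C, and the sources used here do not say how the protein was tagged in that strain. A single further list, from the strain labelled Pdr3_3xmyc grown in the same way and stained with the same antibody, reported the paralogous factor Pdr3. Nuclei of both strains were also incubated with a control rabbit IgG, whose 3 libraries were not used here. The labels do not say that the 2 Pdr1 libraries came from separate cultures, so their agreement may be that of technical repeats.

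Pdr1 is a zinc-cluster protein that binds short sequences named pleiotropic drug response elements and activates genes for ABC transporters that pump drugs out of the cell. Such elements are classically found in the non-coding space before a transporter gene. The yeast genome is compact, so the control region of a gene can reach into the end of its neighbour or lie beneath a short open reading frame that may not encode a protein. Ty elements are yeast retrotransposons present in many copies, some of them nearly identical, each with a short and a long open reading frame that begin at the same place.

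The share of peaks in this class was 17.0% in replicate 1 (95% Wilson interval 14.6 to 19.8) and 13.8% in replicate 2 (11.03 to 17.2). The intervals cover counting error only, and the peaks of a list share 1 library. In replicate 1, 114 summits lay inside genes and 21 in convergent spaces, and in replicate 2 these numbers were 58 and 9. Genes make up 72.9% of the nuclear genome and convergent spaces 4.32%, whereas the peaks here made up 14.4% and 2.65% of the list of replicate 1, and 11.96% and 1.86% of that of replicate 2. By contrast, the 305 and 208 summits in divergent promoters and the 352 and 205 in tandem promoters fell in 8.84% and 13.7% of the genome.

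The summits inside genes were divided by what the gene is. Named genes, which carry a standard symbol and are neither small late-named nor Ty genes, held 44 summits in replicate 1 and 19 in replicate 2. The gene models used do not mark doubtful frames, so frames with a symbol that may not encode a protein are not set apart. Unnamed genes, known by the systematic name alone, held 31 and 18. Small late-named genes, whose systematic name carries a letter suffix or whose length is under 300 bp, with or without a symbol, held 10 and 4. Ty genes held 29 and 17. Against their length in the genome the classes differed: named genes cover 66.2% of it and took 5.56% of the peaks of replicate 1, while unnamed genes cover 4.02% and took 3.91%, and Ty genes cover 1.83% and took 3.66%. In replicate 2 the same classes took 3.92%, 3.71% and 3.51%. These shares are descriptions and no test of placement was made.

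**Figure D1:**
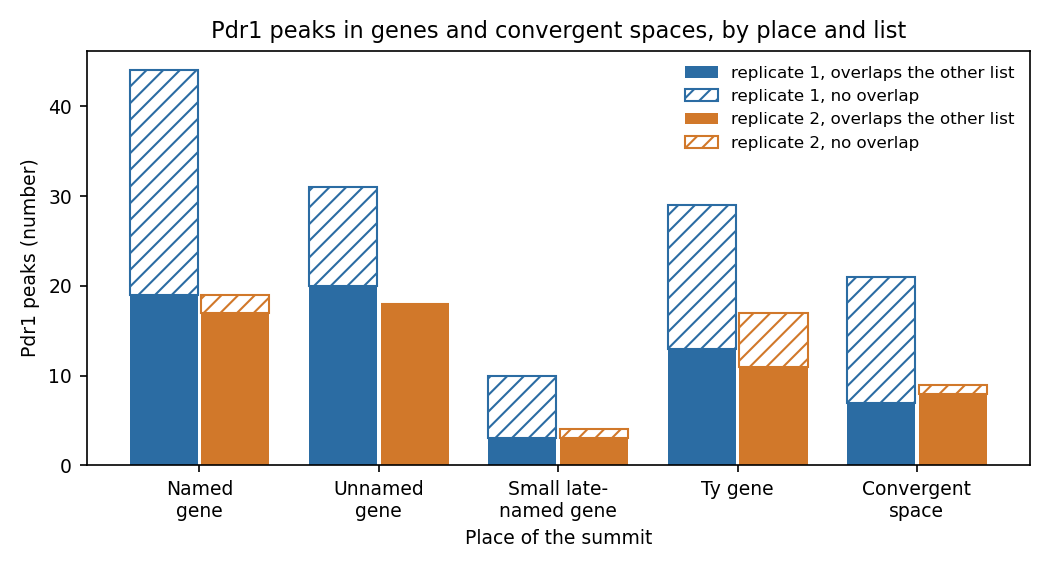
Number of Pdr1 peaks (vertical axis) whose summit lay in each kind of gene or in a convergent space, for both replicate lists. The filled part of a bar counts peaks that overlapped a peak of the other list by at least 1 bp and the hatched part those that did not: 19 of 44 named-gene peaks of replicate 1 overlapped, and 18 of 18 unnamed-gene peaks of replicate 2.

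Replicate agreement was asked first, since a peak found in 1 list alone rests on 1 library. Over the whole list, 52.1% of the peaks of replicate 1 overlapped a peak of replicate 2, and 86.2% of the peaks of replicate 2 overlapped a peak of replicate 1. Of the peaks in genes or convergent spaces, 62 of 135 overlapped in replicate 1 (45.9%, interval 37.7 to 54.3), against 351 of 657 other peaks (53.4%). The difference of -7.50 percentage points did not pass a two-sided Fisher's exact test (p = 0.130, and 0.260 after Benjamini-Hochberg adjustment over the 2 lists). In replicate 2, 57 of 67 overlapped (85.1%, interval 74.7 to 91.7), against 361 of 418 other peaks (86.4%), a difference of -1.29 points (exact p = 0.849, adjusted p = 0.849). The sign in replicate 2 was not stable to the processing. In replicate 1 the difference was -11.6 points (adjusted exact p = 0.0761) when the −log10 q had to reach 10, and 0.789 points when Ty and small genes were left out of the gene models. Those models drop no peak and sort the peaks over such genes anew by their neighbours. With the peaks in Ty genes dropped instead, a choice added after seeing the data, the difference in replicate 1 was -7.20 points.

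Agreement rose with the q-value the authors' peak caller gave. In the lowest tercile of the list of replicate 1 by −log10 q, 28.3% of these peaks and 25.7% of all others overlapped replicate 2. In the middle tercile the shares were 40.8% and 48.4%. In the highest tercile they were 72.5% (interval 57.2 to 83.9, 29 of 40 peaks) and 85.3% (80.0 to 89.3), with intervals that overlap. In the highest tercile of replicate 2 the shares were 89.3% and 94.0%.

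Overlap was also counted by class. Unnamed genes had the highest overlap in both lists, 64.5% in replicate 1 (20 of 31) and 100% in replicate 2 (18 of 18). Named genes had 43.2% and 89.5%, and convergent spaces 33.3% and 88.9%. Ty genes overlapped in 44.8% of peaks of replicate 1 and in 64.7% of peaks of replicate 2 (11 of 17), with an interval of 41.3 to 82.7 in the latter that lies below the 86.2% of all peaks of that list. The small genes had 3 of 10 and 3 of 4 peaks, too few to place. The other intervals reach the share of the whole list, and no test was run between classes.

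**Figure D2:**
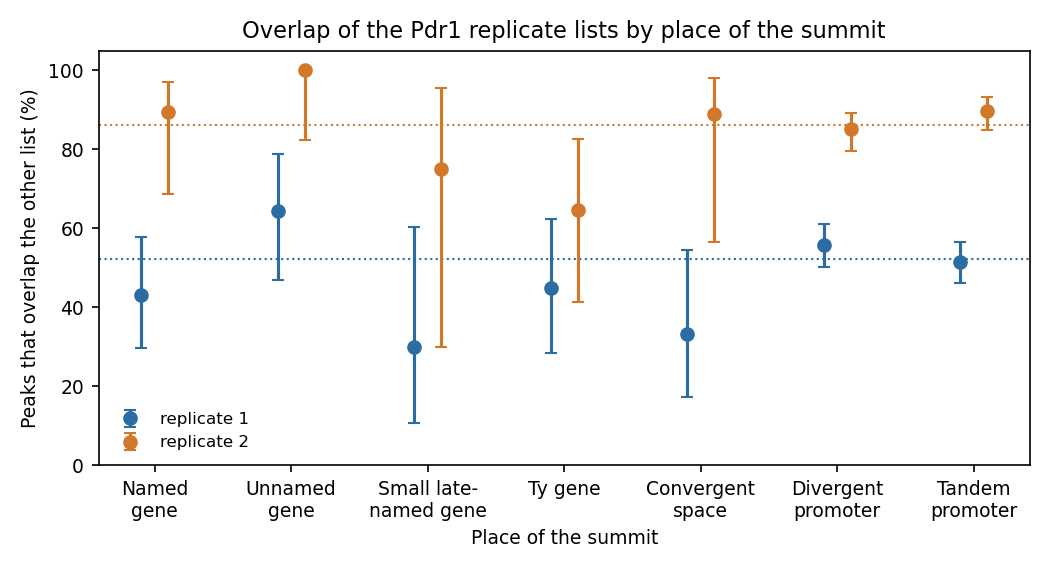
Share of peaks (vertical axis, %) that overlap the other replicate's list, by place of the summit, with 95% Wilson intervals for counting error. Dotted lines give all peaks of each list, 52.1% in replicate 1 and 86.2% in replicate 2; the Ty-gene interval of replicate 2, 41.3 to 82.7, ends below its line.

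The median strength of these peaks was close to that of the rest of their list. Fold enrichment, the linear ratio the authors' caller gave for each peak, had a median of 4.77 in replicate 1 against 4.89 for all other peaks, and of 5.07 against 4.84 in replicate 2. Median widths were 216 against 260 bp, and 259 against 228 bp. Of the 50 highest peaks by fold, 7 in replicate 1 and 6 in replicate 2 were in genes or convergent spaces. The classes spread around these medians. Peaks in named genes reached 27.6 and 20.2 and had medians of 5.69 and 5.08, while peaks in Ty genes never passed 6.04 and 5.47 and had medians of 3.83 and 3.40. Peaks over unnamed genes were wide, with medians of 473 and 394.5 bp.

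Overlapping peaks of both lists were merged into 409 shared regions. In 53 of them the strongest peak of each list was in a gene or convergent space: 45 had both summits in genes, 7 had both in convergent spaces and 1 had a summit of each kind. A further 6 regions counted only by the summit of replicate 1 and 4 only by that of replicate 2. The same gene or the same space held both summits in 52 of the 53. Their summits differed between the lists by a median of 34 bp (interquartile range 12 to 51 bp), by at most 100 bp in 47 of 53, and by 0 bp in 5. In the 346 shared regions outside the class the median distance was 26 bp and 83.5% were within 100 bp. Fold enrichments of the lists had a Spearman rho of 0.47 over the 53 regions and 0.29 over the 346, given as descriptions since regions of 1 pair of libraries share their depth.

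**Figure D3:**
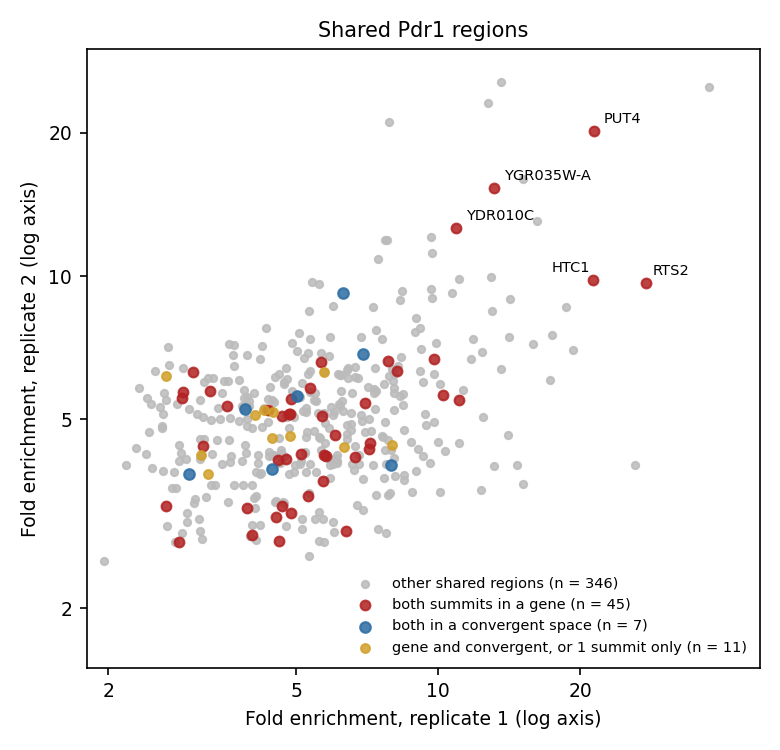
Fold enrichment of the strongest peak in replicate 1 (horizontal, log axis) and replicate 2 (vertical, log axis) for the 409 shared Pdr1 regions. Of the regions with both summits in genes (n = 45), PUT4, RTS2, HTC1, YGR035W-A and YDR010C stand at the upper right, and the 7 convergent regions lie among the bulk.

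The named-gene peaks came first by strength. PUT4, which encodes a high-affinity proline permease, held the best shared peak of the class, at chrXV:987175-988754, with fold enrichments of 21.4 and 20.2 and ranks of 4 and 5 in the lists. Its summits lay 953 and 967 bp inside the 1884-bp gene, near the middle, and were not within 1000 bp upstream of the start of any other gene. In replicate 1 the peak was 1580 bp wide and so covered most of the gene. A separate shared region lay before the start of PUT4, in the divergent space with CIN1, at chrXV:989091-989696, with 8.95 and 8.15. PUT4 was the only named gene with fold enrichments above 10 in both lists. RTS2 held a narrow peak at chrXV:472455-472661 with values of 27.6 and 9.66 and ranks of 2 and 19. Its summits lay 628 and 617 bp into a gene of 699 bp and 198 and 209 bp before the start of BUD21, which encodes a component of the small-subunit processome of ribosome assembly. HTC1, at chrXVI:425194-425758, had 21.2 and 9.80, with both summits at the same base, 499 bp into a gene of 597 bp and 252 bp before the start of YPL068C.

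Inside named genes the summits gathered at the 3′ end. Position was measured from the annotated start to the annotated end, and 24 of 44 summits of replicate 1 (54.5%, interval 40.1 to 68.3) and 11 of 19 of replicate 2 (57.9%, 36.3 to 76.9) were in the last 20% of the gene. The median relative position was 0.84 in both lists, a median of 194.5 bp before the end in replicate 1 and of 113 bp in replicate 2. In replicate 1, 8 summits lay in the first 20%, and in replicate 2 none did. Unnamed genes, which are short (median 369 and 378 bp), showed no such gathering: 6 of 31 and 3 of 18 summits were in their last 20%. Alternative processing was run on all genes together and not on named genes alone. With summits moved 100 bp to higher coordinates, the all-gene share in the last 20% went from 28.9% to 23.1% in replicate 1. In replicate 2 it went from 29.3% to 19.6%.

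**Figure D4:**
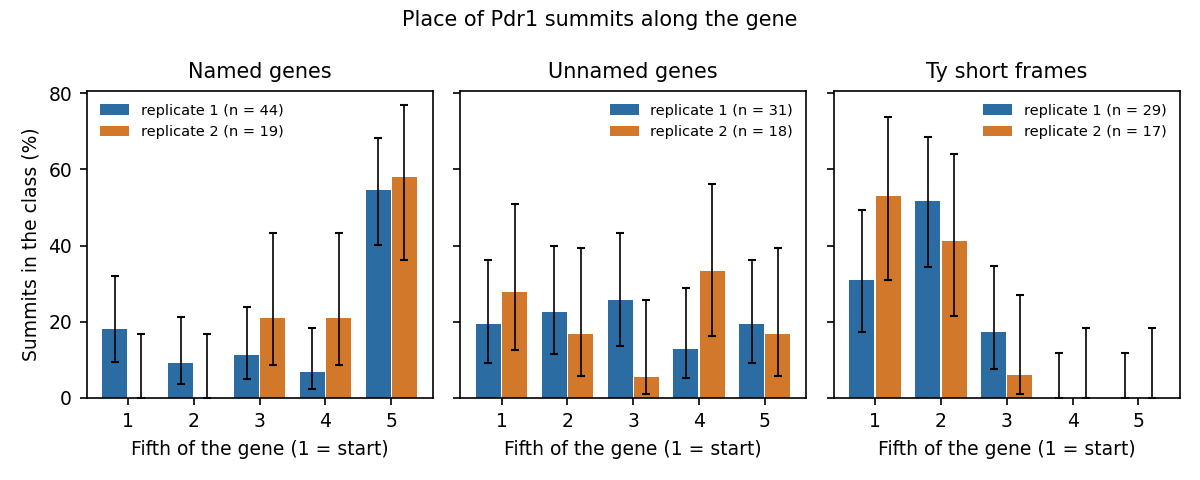
Share of summits (vertical axis, %) in 5 equal parts of the gene from its start (1) to its end (5), for named genes, unnamed genes and the short frame of Ty genes, with 95% Wilson intervals. Named genes reach 54.5% and 57.9% in part 5; Ty genes have no summit in parts 4 and 5.

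Many of these summits also lay in front of a neighbouring gene. Of summits inside genes, 73 of 114 in replicate 1 (64.04%, interval 54.9 to 72.3) and 39 of 58 in replicate 2 (67.2%, 54.4 to 77.9) also lay within 1000 bp upstream of the start of another protein-coding gene. With 500 bp in place of 1000 bp the numbers were 39 and 19. Outside Ty genes the shares within 1000 bp were 77.6% (66 of 85) and 90.2% (37 of 41). All 10 and all 4 summits in small genes had such a start, as did 29 of 31 and 16 of 18 in unnamed genes and 27 of 44 and 17 of 19 in named genes. The small genes had median lengths of 192 and 175.5 bp and the unnamed genes of 369 and 378 bp. The share for any point in genes of each class was not computed, so these counts cannot be read as a property of the peaks. Of the 27 named-gene summits with a start in reach, 18 were in the last 20% of their gene in replicate 1, and 10 of 17 were in replicate 2.

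Pairs of a gene with summits in both lists and the gene start they precede are given with their distances. The summits in BIK1, which encodes a microtubule-associated protein, lay 374 and 412 bp before HIS4, an enzyme of histidine synthesis, with fold enrichments of 4.66 and 5.08. Those in YCH1 lay 484 and 441 bp before ADE3, an enzyme of one-carbon and purine metabolism, with 5.36 and 5.81. FYV12 held summits 303 and 249 bp before SER1, the phosphoserine aminotransferase of serine synthesis, and 261 and 315 bp before RPS30B, a ribosomal protein gene on the other side, with 3.29 and 5.73. YEL008W, an unnamed gene, held summits at the same base in both lists, 918 bp before GCN4, the activator of amino acid synthesis genes, with 4.88 and 5.52. A separate shared region stood on its other side, between YEL008W and MIT1, at chrV:140966-141632, with 5.08 and 7.59. In TRM5, a tRNA methyltransferase gene, summits lay 801 and 706 bp before PCL5, a cyclin that acts on Gcn4, with 2.88 and 5.69. The pairs with GCN4 and PCL5 are farther apart than 500 bp. These genes were picked from the list after their values were seen, and no shared function was tested.

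Other named genes with summits in both lists stood before genes of other kinds. UTR5 summits lay 506 and 606 bp before ANP1, a mannosyltransferase subunit, and 618 and 518 bp before HYP2, the translation factor eIF5A, with fold enrichments of 5.68 and 5.07. ALF1, which encodes a tubulin-folding factor, held summits 281 and 288 bp before PGA2, with 6.99 and 5.41. PHO4, the activator of phosphate genes, held summits 580 and 544 bp before QCR6, a subunit of respiratory complex III, with 4.53 and 3.12. LCL1 summits lay 424 and 497 bp before SUR1, an enzyme of sphingolipid synthesis, with 5.73 and 4.20. AHT1 summits lay 634 and 666 bp before HXT4, a hexose transporter, with 6.37 and 2.91. In all, 16 named genes held a summit in both lists, and 2 of these, PUT4 and NFS1, had no other gene start in reach. NFS1, the cysteine desulfurase of iron-sulfur cluster assembly, had its summits 56 and 5 bp from the end of the gene, with fold enrichments of 5.69 and 3.71.

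Named-gene summits with no start in reach were mostly of replicate 1, which had 17, while replicate 2 had 2. Of the 17, 4 overlapped a peak of the other list (23.5%), against 15 of the 27 with a start in reach (55.6%), and their median width was 170 bp against 216 bp. In replicate 2 both summits with no start in reach overlapped the other list, as did 15 of the 17 with one (88.2%), and the median widths were 725.5 and 255 bp, the opposite order. No test was run on these counts. The 13 without overlap lay in PDR15 (2 peaks), EPL1, TOS8, OLE1, PUF4, UGA1, URA2, CWP1, SFK1, IXR1, RKR1 and CAR1. Among them are OLE1, the fatty acid desaturase gene, with a fold enrichment of 4.44, URA2, which starts pyrimidine synthesis, with 7.16, and CAR1, the arginase gene, with 3.79. These values rest on 1 library each. In these counts a start in reach is that of another gene. Of the 13, the summits in IXR1, CWP1 and OLE1 and the nearer in PDR15 lay 26, 79, 184 and 248 bp after their own gene's start. Shared regions outside the class stood in the spaces before PDR15, TOS8, OLE1, CWP1, SFK1, IXR1 and CAR1. EPL1, PUF4, UGA1, URA2 and RKR1 had none there.

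Of 22 genes of the drug resistance list, which included PDR1 and YGR035C, 2 held a summit inside in replicate 1 (9.09%) and 1 in replicate 2 (4.55%), where 2.20% and 1.17% of all protein-coding genes did. The list is short and was chosen with results of these data known. PDR15, an ABC transporter gene, held 2 peaks in replicate 1 alone, at chrIV:1279310-1279626 and chrIV:1279863-1280060, with fold enrichments of 7.84 and 7.32. Their summits lay 248 and 738 bp into a gene of 4590 bp. A shared region outside the class lay before the gene, at chrIV:1278425-1279151, with 9.67 and 12.1. BDH2, at chrI:34370-34940, held a peak in both lists with 7.13 and 4.34. Its summits lay 1233 and 1188 bp into a gene of 1254 bp, at the 3′ end, and 474 and 519 bp before BDH1, the butanediol dehydrogenase gene. A weak peak of replicate 1 in ERG4, a gene of ergosterol synthesis, lay 779 bp before the start of PDR1 itself, with a fold enrichment of 2.60 and no counterpart in replicate 2.

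Among all 6002 protein-coding genes, 2.20% held a summit in replicate 1, 1.17% in replicate 2 and 1.02% in both. Lists of genes by function, made from gene symbols, were read against these shares and against those of named genes alone, 0.849% in replicate 1 and 0.375% in replicate 2, since the lists hold named genes for the most part and Ty genes raise the shares over all genes. None of 137 cytosolic ribosomal protein genes, 21 genes of glycolysis and fermentation, 23 heat-shock and chaperone genes, 16 translation factor genes or 8 subtelomeric helicase genes held one in either list. Of 93 membrane transporter genes, PDR15 and PUT4 held one in replicate 1 (2.15%) and PUT4 in replicate 2 (1.08%). Of 42 cell wall genes, CWP1 did in replicate 1 alone. Of 145 transcription factor genes, HSF1, IXR1, PHO4, RSF2, STP4 and TOS8 did in replicate 1 (4.14%) and PHO4 alone did in replicate 2 (0.690%). Of the 6, PHO4 and RSF2 had peaks that overlapped the other list. The HSF1 summit lay 36 bp from the end of the gene and 794 bp before AFT1, which encodes an iron-responsive activator, with a fold enrichment of 6.58.

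Among unnamed and small genes, YGR035W-A, at chrVII:557518-558001, had fold enrichments of 13.1 and 15.3 and summits 364 and 350 bp before YGR035C. YDR010C, at chrIV:465040-465571, had 10.9 and 12.6 and summits 643 and 607 bp before SNQ2, a multidrug ABC transporter gene. By mean rank over the lists these stood first in both classes together. YFR018C followed at chrVI:183023-183350 with 9.78 and 6.70 and both summits at the same base, 361 bp before IGD1. YPR064W, with 7.85 and 6.64, held summits 648 and 683 bp before ROX1, the repressor of hypoxic genes. YMR103C, with 11.1 and 5.49, lay 664 and 657 bp before LAF1, YOR268C, with 10.2 and 5.62, lay 583 and 586 bp before PAC1, and YDR274C, with 8.17 and 6.31, lay 497 and 528 bp before TLD1. YCR022C, with 7.17 and 4.46, lay 398 and 648 bp before HSP30, a plasma membrane heat-shock protein.

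A summit that also lay in a named gene was given to that gene, so no peak counted over unnamed and small genes could lie in one. Without the unnamed and small genes in the annotation, none of the peaks over them would have counted as inside a Ty gene either. Of these 41 peaks of replicate 1, 18 would lie in divergent promoters, 20 in tandem promoters and 3 in convergent spaces. Of the 22 of replicate 2 the numbers would be 7, 13 and 2. Among those shared by the lists, YHL041W and YPR014C had no other gene start within 1000 bp. Their fold enrichments were 5.13 and 4.22, and 4.85 and 5.13.

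At 1 locus the kind of gene depended on the list. A shared region at chrX:662845-663322 had its summit in RSF2, a zinc-finger gene, 8 bp from the start in replicate 1. The same summit also lay in YJR128W, an unnamed gene that overlaps RSF2 on the other strand. In replicate 2 the summit lay in YJR128W alone, 138 bp before the start of RSF2. The fold enrichments were 5.63 and 6.59. A second shared peak lay beyond YJR128W in the convergent space it forms with EFM3, with 7.93 and 4.00.

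In convergent spaces, 7 regions were shared. The strongest by rank lay between YJL077W-B and ICS3, at chrX:294116-295055, with fold enrichments of 6.92 and 6.87. Its summits also lay 187 and 151 bp before the start of YJL077W-A, a gene beyond the space. The region between TIM9, which encodes a mitochondrial import chaperone, and PXP1, at chrV:117727-118055, had 6.29 and 9.24 with both summits at the same base in a space of 1142 bp. Between YOL155W-A and HPF1, a cell wall mannoprotein gene, the values were 5.02 and 5.61, again at the same base. ECM8 and SLM4 enclosed a peak with 3.89 and 5.26. In replicate 1 the summits beside TIM9, HPF1 and ECM8 had no gene start within 1000 bp downstream of them. The share of convergent summits with such a start was not counted. Spaces with a peak were 186 to 2251 bp long in replicate 1 (median 683) and 161 to 1484 bp in replicate 2 (median 710). Of the 21 peaks of replicate 1, 8 lay between 2 genes of the named class, as did 3 of the 9 of replicate 2. That class leaves out small genes with a symbol, such as TIM9. If unnamed and small genes were left out, 12 and 5 would still be convergent. No tRNA gene lay within 500 bp of any of these summits.

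The strongest peaks without a counterpart were of moderate height. In replicate 1 they were IRC16 with a fold enrichment of 9.57, the space between PIR3 and YKL162C with 8.76, ART5 with 8.67, SFK1 with 8.41 and TSL1, a subunit of the trehalose synthase complex, with 8.36. The IRC16 summit lay 131 bp before TIP41 and 136 bp before ERV2. In replicate 2 they were YJL052C-A with 5.48, YLR227W-A with 5.47, RPR2, which encodes a subunit of RNase P, with 5.35, YOR142W-A with 4.59 and YLR157C-A with 4.08. The YJL052C-A summit lay 364 bp before TDH1, a glyceraldehyde-3-phosphate dehydrogenase gene, and 3 of these 5 genes, YLR227W-A, YOR142W-A and YLR157C-A, were Ty genes.

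Ty genes formed a pattern of their own. The gene table held 42 Ty loci, read from pairs of frames with a shared start, and 24 of them held a summit in replicate 1, 15 in replicate 2, 14 in both and 25 in either. Every summit lay in the first part of the frames, 41 to 631 bp from the start in replicate 1 and 31 to 616 bp in replicate 2. Of these summits, 7 of 29 and 6 of 17 lay between 30 and 100 bp, and 14 of 29 and 6 of 17 between 370 and 440 bp. These windows were not planned in advance and evenness was not tested. Nearly identical copies may share reads, so positions at different loci are not independent. In the 1000 bp before the frames, 2 loci held a summit in each list.

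**Figure D5:**
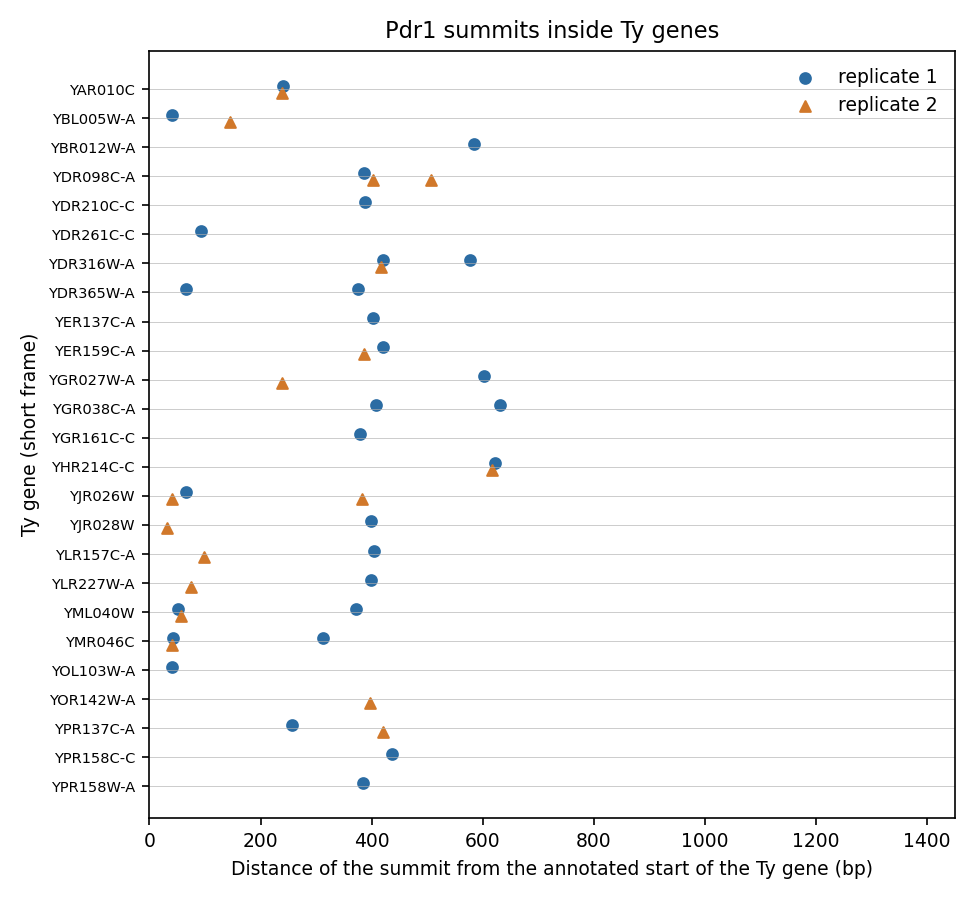
Distance of each Pdr1 summit from the annotated start of the Ty gene (horizontal axis, bp) for the 25 Ty loci with a summit in either list, 1 line per locus. Circles are replicate 1 and triangles replicate 2; all lie within 631 bp of the start and many stand near 50 or near 400 bp.

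Of the 25 loci with a summit, 24 shared 1 frame length. Of 29 loci whose short frame is 1323 bp, 24 held a summit in at least 1 list (23 in replicate 1, 14 in replicate 2). Of 10 loci whose short frame is 1317 bp, 0 did in either list. The single loci of 873 and 1242 bp had none, and that of 1437 bp, YHR214C-C, had one in both lists, 622 and 616 bp from its start, with fold enrichments of 3.17 and 4.39. This split by length was noticed after the values were seen and was not tested. Copies of 1 length can be nearly identical, so a read may fit several of them, and the sources used here do not say how such reads were placed. The copy that a peak is assigned to is therefore uncertain.

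At single Ty loci the summits of the lists lay close together in some and far apart in others. YBL005W-A, the highest of replicate 1, had a fold enrichment of 6.04 with the summit 41 bp from the start, and 4.64 with the summit at 145 bp in replicate 2. YMR046C had its strongest summits 43 and 41 bp from the start with 4.82 and 5.13. YLR227W-A and YLR157C-A had summits at 398 and 405 bp in replicate 1 and at 74 and 98 bp in replicate 2, with no overlap, so that the same locus was called in both lists at different places. The 11 shared Ty regions had summits a median of 26 bp apart with 7 within 100 bp, against 40 of the 42 other regions with both summits in the class.

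Pdr3 overlapped the class at 2 places. The Pdr3 list held 7 peaks in all, and those in HTC1 and YDR010C were the 2 in shared Pdr1 regions described here, with Pdr3 fold enrichments of 5.02 and 3.26 and ranks of 5 and 6 in that list. The Pdr3 summits lay at chrXVI:425320 and chrIV:465316. Both regions were among the 5 best shared Pdr1 regions inside genes, and PUT4, the first of them, had no Pdr3 peak. The Pdr3 list comes from 1 library, so its lack of a peak has no replicate check.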

How the data were processed

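CUT&RUN peak lists of 2 Pdr1 c-Myc libraries and 1 Pdr3 c-Myc library were used. Per the submitters' processing notes, Trimmomatic 0.33, Bowtie2, Picard, deepTools and MACS2 2.1.1 and the builds R64 and sacCer3 were used. What the sources used here do not give is the role of each tool, its settings, the use of IgG and spike-in reads, and how reads that fit several copies were placed. Each library has 1 narrowPeak list with no header line. Each peak's signal value was read as the authors' fold enrichment, a linear ratio, and fold values were compared only inside 1 list. The authors' −log10 q served as a filter and their −log10 p-value was left aside. In 100% of Pdr1 peaks the deposited score was the −log10 q multiplied by 10 without its decimals, so it adds nothing. The lists hold no read counts, so depth is unknown.

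Gene models came from a RefSeq table of assembly R64, with strand from the systematic name. A summit in several genes was given to the first of named, unnamed, small and Ty gene. The table gives no gene products. Ty genes were therefore read as pairs with a shared start, a short frame of 800 to 1500 bp and a long one of at least 4500 bp (41 pairs), plus YAR009C and YAR010C by name, and function lists were made from symbols. Peaks of the lists were matched by an overlap of at least 1 bp, and a shared region was described by the strongest peak of each list. Overlap of members and other peaks was compared with a two-sided Fisher's exact test, adjusted over 2 lists (Python 3.11.15, SciPy 1.17.1, pandas 2.3.3). The scripts were tested on simulated positions. Alternatives moved summits by 100 bp, raised the −log10 q to at least 10, and changed gene models and the overlap required. Genes were named by rule: the 12 best shared regions in genes and the 5 best convergent ones by mean rank, Ty loci, the 5 highest single-list peaks per replicate, regions with a Pdr3 peak and drug resistance genes; further genes were chosen after their values were seen. Members and lists were chosen with earlier results of these data known. A search for response elements was not made, because no genome sequence was at hand.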

Additional observations from a re-analysis of the deposited data

How the results depend on the processing

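Of 69 alternative values, 48 kept their direction and stayed on the same side of the threshold or within the error. No difference in overlap with the other replicate passed an adjusted exact p of 0.05 under any alternative. In replicate 2 that difference turned positive under every alternative: 0.585 points at −log10 q of at least 10, 1.74 and 0.206 with summits moved 100 bp up and down, 3.94 without Ty and small genes, 1.74 with a reciprocal overlap of 50%, 2.32 with summits within 100 bp, 4.55 with equal numbers of peaks, and 5.64 without Ty-gene peaks, a choice added after seeing the data. In replicate 1 the difference was -7.20 points without Ty-gene peaks. Its range there was from -11.6 points (adjusted exact p = 0.0761, at −log10 q of at least 10) through -10.4 (adjusted exact p = 0.0680, summits moved 100 bp down) to 0.789 without Ty and small genes. That gene model also moved the share of peaks in the class to 13.4%, summits in the last 20% of the gene (all genes) from 28.9% to 40.0% and the median fold enrichment to 5.25 in replicate 1, and summits upstream of another gene to 86.5% in replicate 2. Without unnamed and small genes, added after seeing the data, the share in replicate 1 was 13.5%. At −log10 q of at least 10 the median fold rose to 5.43 and 5.44, and summits upstream of another gene to 78.6% in replicate 2; with summits moved 100 bp down the median fold was 4.60 in replicate 2. An upstream window of 500 bp gave 34.2% and 32.8%. The share in the last 20% of the gene (all genes) was 23.1% and 19.6% with summits moved 100 bp up. With summits moved 100 bp down it was 29.4% and 30.4%. No alternative was run on named genes alone. The number of shared regions, 53, stayed between 36 and 54. Leaving out 1 replicate gave 13.8% to 17.0% for the share (15.8% over both lists), 28.9% to 29.3% for the last 20% of the gene, 64.04% to 67.2% for summits upstream of another gene and 4.77 to 5.07 for the median fold; overlap and shared regions need both lists. No paired analysis was possible because replicate numbers are shared only between c-Myc and IgG libraries, and the latter were not used here. Alternatives for the response element were not run. The cause of these changes was not tested beyond the choice itself.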
